A study of Mus musculus with 38 samples.

Results

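The genes of the mitochondrial ribosomal proteins were followed through activation of mouse CD4+ T cells in 5 genotypes. Members were the rows of the deposited count table whose mouse symbol begins with Mrpl or Mrps and a number and is protein-coding, which gave 78 genes of 24028 in the table. All 78 had enough counts to be tested, as had 13650 genes in all. The mitochondrial ribosome translates the mRNAs of mitochondrial DNA, which encode core subunits of the respiratory chain and of ATP synthase. Its RNAs come from mitochondrial DNA, but its proteins are encoded in the nucleus, made in the cytosol and imported. T cells build mitochondria as they leave quiescence, and activated CD4+ T cells depend on mitochondrial translation products for respiration.

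Polyadenylated RNA was sequenced from naive CD4+ T cells and from the same kind of cells after 24 h of stimulation by plate-bound antibodies, 0.5 µg/ml against CD3 and 0.2 µg/ml against CD28, in medium with IL-2 at 50 U/ml. CD28-/- mice are, by their label, knockouts of the costimulatory receptor CD28. T1792delta/delta mice carry floxed miR-17~92, a microRNA cluster, deleted by a Cre recombinase driven from the Cd4 promoter, which acts in T cells from the CD4-expressing thymocyte stage. T1792tg/tg mice carry the same Cre and an extra miR-17~92 copy in Rosa26, expressed from the CAG promoter once Cre removes a stop cassette. Rescue mice are CD28-/- mice with that Cre and that transgene, and wt mice carry none of these alleles. Each library came from 1 mouse of either sex, with lymph nodes and spleen pooled, and each group had 4 libraries except the rescue groups, which had 3. There was no control with Cre alone and no culture without stimulation, so the response to 24 h holds the effect of culture as well as that of the antibodies.

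Total counts per library ran from 19427291 to 28020721 over the 38 libraries. Counts of Cd28 did not check the label CD28-/-, since 506 to 598 CPM (a gene's counts as a share of its library, on TMM-scaled library sizes) remained in 24h cells labelled CD28-/-, against 292 to 377 CPM in 24h wt cells. The row of Mir17, the precursor of miR-17, held 0 counts in the 4 24h T1792delta/delta libraries, 0.310 to 0.866 CPM in 24h T1792tg/tg cells and 0.113 to 0.156 CPM in 24h wt cells. All 13 genes of the CD4 T cell list were detected, with a summed level of 3720 to 5874 CPM over the 24h groups and 9196 to 11740 CPM over the naive groups. B cell, myeloid, CD8 T and NK cell and red cell markers were also present in naive libraries, and their summed levels were lower at 24h. CD28-/- and rescue libraries all came from female mice by their sex-linked transcripts, as did 3 of 4 wt, 2 of 4 T1792delta/delta and 1 of 4 T1792tg/tg mice. In bulk RNA, fewer cells of a type and less RNA per cell cannot be told apart, and CPM gives a share of the RNA, not an amount per cell.

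Nearly the whole set was higher after 24 h than in naive cells. In wt cells 77 of 78 members rose and none fell, with a median log2 fold change of 1.69, a 3.22-fold increase, against a median of -0.06 over all genes tested and 41.3% of them called higher. In cells labelled CD28-/-, 74 members rose (39.7% of all genes called higher) with a median of 1.17. In T1792delta/delta cells 76 rose (41.4%) with a median of 1.53, in T1792tg/tg cells 76 rose (41%) with a median of 1.43, and in rescue cells 75 rose (38.8%) with a median of 1.22. Of the 78 members, 73 rose in all 5 genotypes, 3 in 4 of them, 1 in 1 and 1 in none, and none fell in any. Here and below a call is an adjusted p below 0.05 in edgeR's quasi-likelihood test, with Benjamini-Hochberg adjustment over all genes tested, and a log2 fold change is that between groups as fitted.

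The summed level of the members gives the same picture by library. It was 6776 ± 109 CPM in 24h wt cells and 2167 ± 128 CPM in naive wt cells (SD, n = 4 each). It was 5092 ± 260 CPM in 24h CD28-/- cells and 2350 ± 225 CPM in naive CD28-/- cells (SD, n = 4 each). Every 24h library lay above every naive one. The other 24h groups had 5856 ± 466 CPM in T1792delta/delta, 6427 ± 361 CPM in T1792tg/tg and 5421 ± 302 CPM in rescue cells (SD, n = 4, 4 and 3). As a share of raw counts the members took 0.534% in 24h CD28-/- cells, 0.678% in 24h wt cells and 0.209% in naive wt cells.

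**Figure D1:**
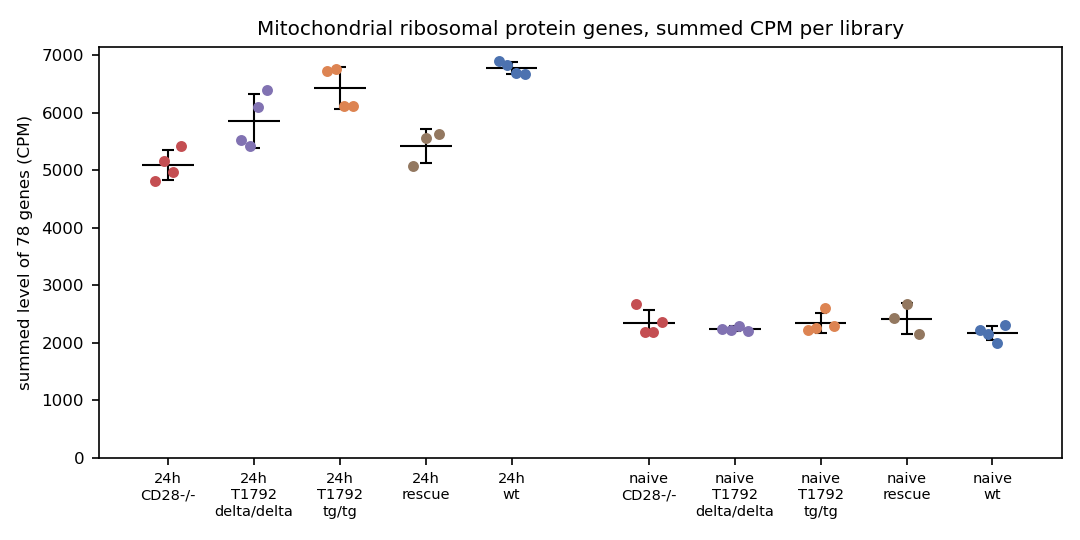
Summed level of the 78 mitochondrial ribosomal protein genes in each library, in CPM, by group; points are single mice, lines and bars the mean ± SD. All 24h libraries sit at or above 4820 CPM and all naive libraries at or below 2679 CPM, and the 24h wt libraries (6673 to 6898 CPM) sit above those labelled CD28-/- (4820 to 5418 CPM).

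Both subunits of the ribosome took part. Among large-subunit proteins that have a bacterial counterpart, 29 of 30 rose in wt cells, with a median log2 fold change of 1.93. Among large-subunit proteins grouped as having no bacterial counterpart, 21 of 21 rose, with a median of 1.62. In the small subunit, 15 of 15 proteins grouped as having a bacterial counterpart rose, with a median of 1.45. Of those grouped as having none, Mrps28 among them, 11 of 11 rose, with a median of 1.72. Mrps30 and Mrps18a carry a small-subunit name but sit in the large subunit and were counted there. Mrps18a and Mrps18b were placed in the groups without a counterpart, although they are homologues of bacterial S18, and Mrps18c in the group with one. Mrps36, which belongs to the 2-oxoglutarate dehydrogenase complex and not to the ribosome, was left outside these groups.

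The size of the response differed widely between members. Mrps6, a small-subunit protein at the platform, had 155, 149, 152 and 162 CPM in 24h wt libraries, against 18.9, 14.3, 14.2 and 16.2 CPM in naive wt libraries. The 2 sets did not overlap, and the log2 fold change was 3.29 ± 0.15 (SE, adjusted p = 7.01e-21), the highest of the members. Part of its exon sequence is shared with the sodium/myo-inositol cotransporter gene Slc5a3, which was called higher at 24h in every genotype too (log2 fold change 0.92 in wt cells), so reads of the pair may not have been told apart by the counting. Mrpl12, a protein of the stalk that recruits translation factors, had 315, 325, 326 and 320 CPM in 24h wt libraries, against 45.8, 35.4, 34.3 and 39.1 CPM in naive wt libraries. Again no library of one set reached the other, with a log2 fold change of 3.06 ± 0.11 (SE, adjusted p = 1.49e-23).

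Mrpl51, a mitochondria-specific protein of the large subunit, averaged 79.5 ± 1.75 CPM in 24h wt cells and 10.9 ± 0.967 CPM in naive wt cells (SD, n = 4 each), a log2 fold change of 2.87 ± 0.12 (SE). Mrpl20, whose bacterial counterpart binds the large rRNA early in assembly, averaged 172 ± 4.85 CPM in 24h wt cells and 26.5 ± 2.69 CPM in naive wt cells (SD, n = 4 each), a log2 fold change of 2.70 ± 0.11 (SE). Mrps12, the small-subunit protein at the decoding centre, averaged 72.5 ± 3.14 CPM in 24h wt cells and 17.5 ± 4.73 CPM in naive wt cells (SD, n = 4 each). All 3 genes were called higher in every genotype.

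The other end of the range held members that barely moved. Mrpl24, a large-subunit protein whose bacterial counterpart starts subunit assembly, had 123, 120, 116 and 124 CPM in 24h wt libraries, against 107, 112, 101 and 119 CPM in naive wt libraries. The groups overlapped, and its log2 fold change of 0.14 ± 0.06 (SE) had an adjusted p of 0.0446 by edgeR. That call ended without any of naive wt replicates 1, 2 or 3 or 24h wt replicates 1, 2 or 4, with adjusted p of 0.0524 to 0.173, and under DESeq2 size factors (adjusted p = 0.253). It also ended with the replicate number as a block (adjusted p = 0.0503, and 0.062 with the block within genotype). In the other 4 genotypes Mrpl24 was not called, with log2 fold changes of 0.05 in CD28-/-, -0.06 in T1792delta/delta, -0.09 in T1792tg/tg and -0.06 in rescue cells. Under DESeq2 size factors its value in CD28-/- cells turned to -0.02, and that of -0.15 in T1792tg/tg cells was called lower (adjusted p = 0.0258).

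Mrpl23, a protein at the exit tunnel, was the lowest member, at 0.890, 1.44, 1.44 and 1.80 CPM in 24h wt libraries and 0.979, 1.16, 0.962 and 0.864 CPM in naive wt libraries. The groups overlapped and its log2 fold change of 0.49 ± 0.24 (SE, adjusted p = 0.0611) was not called, but it was called without naive wt replicate 2 (adjusted p = 0.0494) or 24h wt replicate 1 (0.0168), and in T1792delta/delta cells without naive replicate 3 (0.0183). A processed copy of the gene, Mrpl23-ps1, shares part of its sequence. Mrpl58, a peptidyl-tRNA hydrolase that frees stalled ribosomes, rose by a log2 fold change of 0.65 ± 0.11 (SE) in wt cells and was not called in rescue cells. Mrpl9 rose by 0.74 ± 0.06 (SE) in wt cells. Mrpl30 rose by 0.80 ± 0.10 and Mrpl53 by 0.84 ± 0.11 in wt cells, while in CD28-/- cells neither was called, at 0.16 ± 0.10 and 0.08 ± 0.11 (SE, log2 fold changes).

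Calls of 2 of these genes ended under several alternatives. Mrpl58 in T1792delta/delta cells (adjusted p = 0.0255 by edgeR) lost its call without naive replicate 2 or 4 or 24h replicate 3 or 4, with adjusted p of 0.0592 to 0.109, and under DESeq2 (0.0911), DESeq2 size factors in edgeR (0.0921), the compared groups alone (0.0662) and a mean of at least 5 CPM (0.25). Mrpl30 in rescue cells (adjusted p = 0.0449) lost it without naive replicate 1 or 3 or 24h replicate 2 or 3 (0.0561 to 0.448), and under the same 4 alternatives (0.137, 0.133, 0.245 and 0.307). Its log2 fold change of 0.25 in rescue cells was 0.40 without naive rescue replicate 2 and 0.09 without naive rescue replicate 3. In CD28-/- cells Mrpl30 gained the call without naive replicate 1 (0.0434) or 4 (0.0398).

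**Figure D2:**
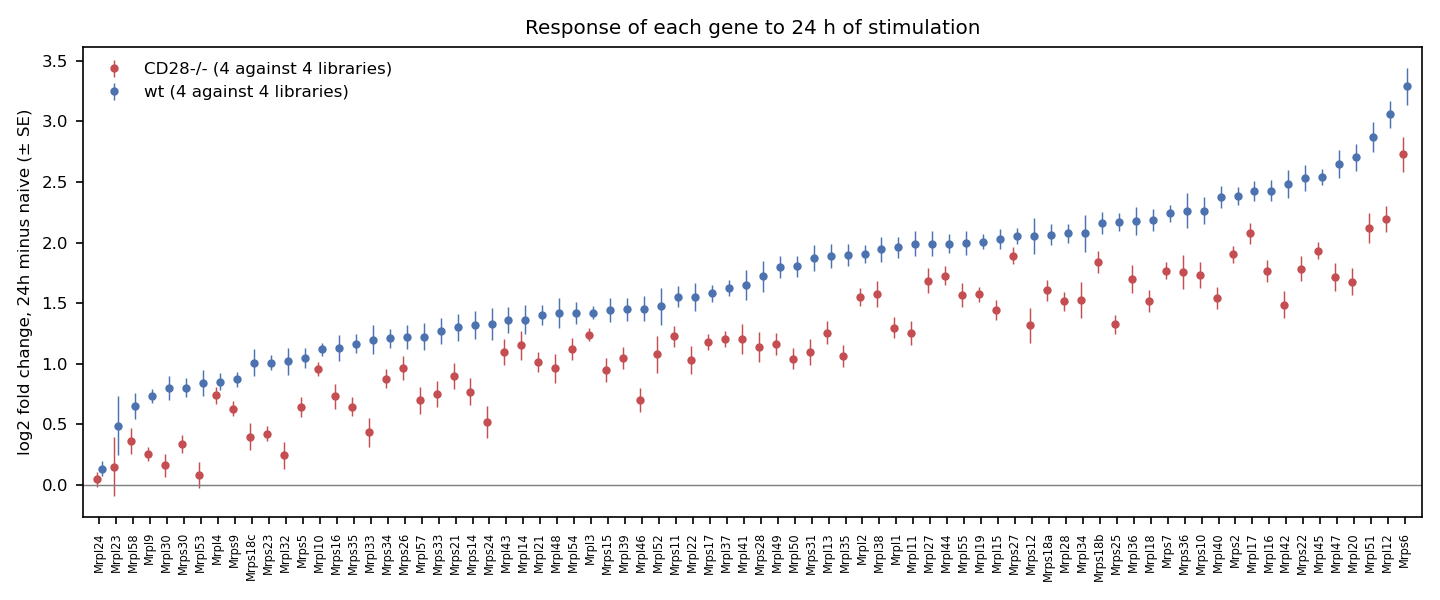
Log2 fold change (24h minus naive, ± SE) of each of the 78 genes in cells labelled CD28-/- and in wt cells, with genes ordered by the wt value from Mrpl24 (0.14) to Mrps6 (3.29). The CD28-/- value lies below the wt value for all 78 genes.

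The 3 homologues of bacterial S18 gave a comparison within 1 family. Mrps18b averaged 121 ± 1.58 CPM in 24h wt cells and 27.0 ± 4.78 CPM in naive wt cells (SD, n = 4 each), and Mrps18a averaged 79.2 ± 2.23 CPM in 24h wt cells and 18.9 ± 1.07 CPM in naive wt cells. Mrps18c, the one at the bacterial S18 position, averaged 47.5 ± 1.73 CPM in 24h wt cells and 23.6 ± 3.09 CPM in naive wt cells. Their log2 fold changes in wt cells were 2.16 ± 0.09 for Mrps18b, 2.07 ± 0.09 for Mrps18a and 1.01 ± 0.11 for Mrps18c (SE). All 3 rose in every genotype, with Mrps18c the least of them in each (0.39 to 1.01).

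Levels per kilobase, which allow genes to be compared, spread 61.5-fold from lowest to highest member in naive wt cells and 142-fold in 24h wt cells. Mrpl23, whose level is uncertain, was the lowest in both (1.70 and 2.39 CPM per kb), so both spreads rest on it. The next lowest member was Mrps25, with 2.60 CPM per kb in naive wt cells and 11.7 in 24h wt cells. Between the lower and the upper decile of members the spread was 8.03-fold in naive wt cells and 6.25-fold in 24h wt cells. The highest in naive wt cells were Mrpl30 (105 CPM per kb), Mrpl24 (92.8), Mrpl52 (66.6) and Mrps21 (56.9). The lowest were Mrps22 (2.88), Mrpl17 (2.85), Mrps25 (2.60) and Mrpl23 (1.70), whose values use the length the table gives for each gene. The order of the 78 genes was largely kept, with a Spearman correlation across genes of 0.865 between 24h and naive wt means, which share annotation lengths and are not independent replicates. Mrpl12 ranked 10 of 78 in naive wt cells and 1 in 24h wt cells, where it had 339 CPM per kb.

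Other genes of mitochondrial translation rose with the ribosomal proteins in wt cells. Of the mitoribosomal proteins with no Mrp symbol, 5 of 5 rose, with a median log2 fold change of 1.13. Of the assembly factors, 26 of 29 rose and 2 fell (median 1.08). Among these were the matrix protein C1qbp (log2 fold change 3.21), the rRNA endonuclease Ybey (2.76) and Rcc1l (1.82), while Gtpbp6 and Mettl17 fell by 0.45 and 0.38. Of the translation factors, 14 of 14 rose (median 1.03), among them the elongation factors Tufm (2.39), Gfm1 (2.19) and Tsfm (2.84). Of the mitochondrial aminoacyl-tRNA synthetases, 12 of 17 rose and Ears2 fell (median 0.55).

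Regulators of mitochondrial transcription and biogenesis went both ways, with 7 of 16 higher, 5 lower and a median of 0.05. Myc (log2 fold change 1.75), the mitochondrial DNA packaging factor Tfam (1.05) and the elongation factor Tefm (2.24) rose. Nrf1, a transcription factor for nuclear genes of mitochondria, fell by 0.22, and the coactivator Ppargc1b fell by 0.97. Perm1, Tfb2m and Ppargc1a also fell. Nuclear respiratory chain subunits rose in 71 of 76 cases (median 1.11). Of the cytosolic ribosomal proteins, which are part of the other ribosome of the cell, 15 of 79 rose and 31 fell (median -0.07).

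**Figure D3:**
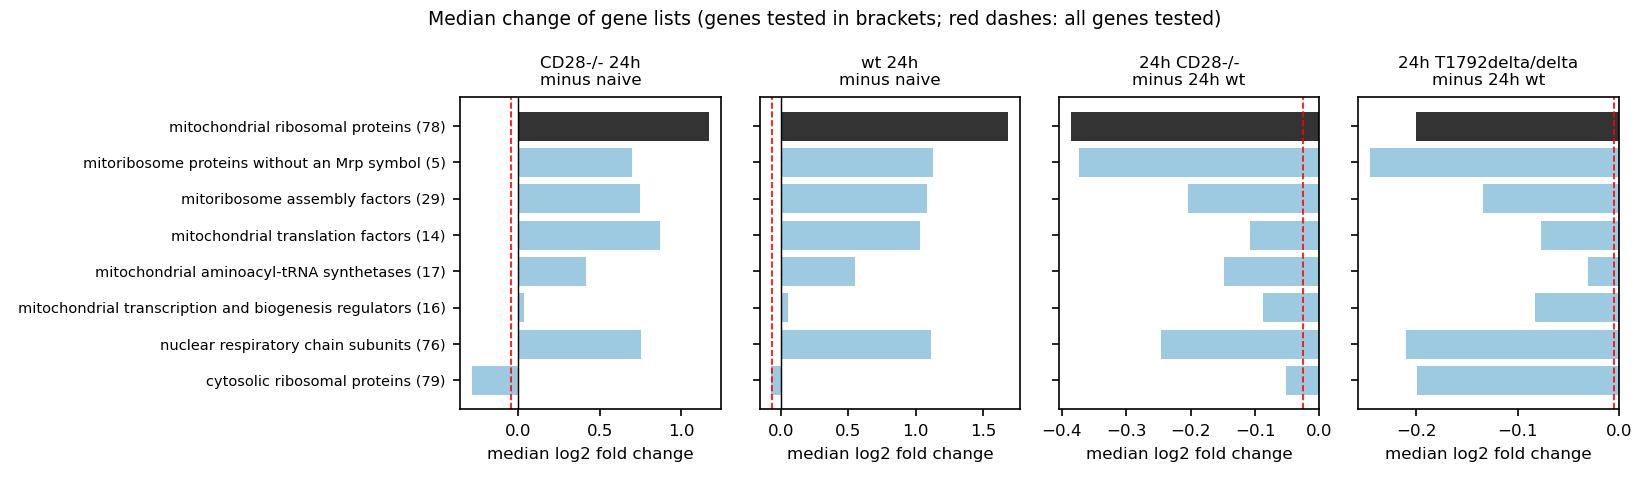
Median log2 fold change of each gene list in 4 comparisons, with the number of genes tested in brackets; black bars are the mitochondrial ribosomal proteins, and the red dashed line is the median over all genes tested. In wt cells the bars run from 1.69 for the mitochondrial ribosomal proteins to -0.07 for the cytosolic ones, and in 24h T1792delta/delta minus wt cells both have a median of -0.20.

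Promoters of members were read for motifs known from nuclear genes of mitochondria. RefSeq promoters of build GRCm38.p6 (250 bases before to 50 after the start) matched 69 of 78 members and 10744 of the genes tested, and both strands were searched. The core of the NRF1 site, GCANGCGC, was present in 30.4% of member promoters and 18.8% of all. The ETS-type letters CCGGAAG were in 36.2% and 18.1%, and the YY1-type letters AAGATGGC in 17.4% and 4.59%. The E-box CACGTG that Myc can bind was in 7.25% of member promoters and 10.2% of all. The GC box GGGCGG was in 49.3% and 62.4%, and TATAAA in 5.80% and 7.65%. The letters are a description of the sequence and not of binding. Members with AAGATGGC (12 genes) had a median wt response of 1.97 and those without it 1.55, while members with GCANGCGC (21 genes) had 1.36 and those without it 1.88. Members with CCGGAAG (25 genes) had 1.42 and those without it 1.84. Members with CACGTG (5 genes) had 1.91 and those without it 1.62. These differences were not tested. The NRF1, ETS, E-box and YY1 letters of either strand are in capitals in the promoters shown. These are the promoters of Mrpl12 and Mrpl20 (large responses), of Mrps12 and of Mrpl53 (called in 3 miR-17~92 comparisons). They lie at chr11:120484387-120484686 (plus strand) for Mrpl12, chr7:28741772-28742071 (minus strand) for Mrps12, chr4:155802628-155802927 (plus strand) for Mrpl20 and chr6:83108858-83109157 (plus strand) for Mrpl53.
Mrpl12: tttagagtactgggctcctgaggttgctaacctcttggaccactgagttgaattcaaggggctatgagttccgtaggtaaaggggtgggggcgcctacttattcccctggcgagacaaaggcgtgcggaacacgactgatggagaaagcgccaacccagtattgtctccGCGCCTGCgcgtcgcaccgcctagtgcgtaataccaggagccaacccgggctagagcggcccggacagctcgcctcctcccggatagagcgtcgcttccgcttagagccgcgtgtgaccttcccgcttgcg
Mrps12: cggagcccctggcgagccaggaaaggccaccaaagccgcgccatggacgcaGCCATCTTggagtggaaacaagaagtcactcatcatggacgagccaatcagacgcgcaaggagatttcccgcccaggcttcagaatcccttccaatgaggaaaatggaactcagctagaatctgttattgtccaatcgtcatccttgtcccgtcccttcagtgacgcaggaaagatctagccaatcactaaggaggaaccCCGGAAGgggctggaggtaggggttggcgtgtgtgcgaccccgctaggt
Mrpl20: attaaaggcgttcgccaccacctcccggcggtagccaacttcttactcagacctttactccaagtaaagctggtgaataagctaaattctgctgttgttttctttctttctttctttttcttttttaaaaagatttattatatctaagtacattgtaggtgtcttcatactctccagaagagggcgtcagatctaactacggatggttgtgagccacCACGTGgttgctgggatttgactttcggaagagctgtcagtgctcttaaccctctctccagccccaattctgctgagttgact
Mrpl53: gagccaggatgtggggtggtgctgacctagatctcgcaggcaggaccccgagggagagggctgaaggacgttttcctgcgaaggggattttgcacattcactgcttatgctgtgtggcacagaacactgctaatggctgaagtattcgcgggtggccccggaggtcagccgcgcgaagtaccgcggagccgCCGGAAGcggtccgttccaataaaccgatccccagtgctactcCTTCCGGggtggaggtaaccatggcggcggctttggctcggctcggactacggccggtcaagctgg
Mrpl12 has 1 NRF1 core, Mrps12 has 1 ETS and 1 YY1 match, Mrpl20 has 1 E-box and Mrpl53 has 2 ETS matches.

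Some members start near a gene read in the opposite direction. In the GENCODE vM21 annotation, 18 members had such a partner starting within 1000 bases, at 26 to 935 bases. The share of all genes with such a partner was not counted. Of the 17 partners tested, 11 rose and 5 fell in wt cells, with a median log2 fold change of 0.55, against 1.65 for the members paired with them. Mrps12 rose by 2.05, and the mitochondrial seryl-tRNA synthetase gene Sars2, 172 bases away, rose by 0.92. Mrpl2 rose by 1.91, and the kinesin light chain gene Klc4, 207 bases away, fell by 2.05. Mrpl49 rose by 1.80, and Fau, which encodes a cytosolic ribosomal protein and starts 59 bases away, fell by 0.63.

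At 24h the members were lower in cells labelled CD28-/- than in wt cells. Of 78 members 66 fell and 0 rose, with a median log2 fold change of -0.39, against -0.03 over all genes, of which 27.8% were called lower and 23.7% higher. The values of the CD28-/- libraries lay wholly below those of the wt libraries for 72 members, as for 29.6% of all genes. Under the alternatives, the count stayed between 59 and 72. By role, grouped as above, 27 of 30 and 19 of 21 large-subunit proteins with and without a bacterial counterpart fell. So did 10 of 15 and 10 of 11 of those of the small subunit. The members that were not called include Mrps6 (-0.25 ± 0.13, adjusted p = 0.106), Mrpl24, Mrpl23, Mrpl58, Mrps18c and Mrps9, the last named after its value was seen.

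Mrpl28, a large-subunit protein, had 68.1, 71.9, 69.1 and 76.3 CPM in 24h CD28-/- libraries, against 116, 107, 109 and 108 CPM in 24h wt libraries. Every CD28-/- library was below every wt library, with a log2 fold change of -0.62 ± 0.07 (SE, adjusted p = 8.36e-09). Mrps25, a mitochondria-specific small-subunit protein, had 45.2, 46.5, 44.7 and 49.5 CPM in 24h CD28-/- libraries, against 70.4, 71.2, 71.5 and 70.8 CPM in 24h wt libraries. Here too the sets were apart, at -0.61 ± 0.07 (SE, adjusted p = 1.02e-08). Of the exon bases of Mrps25, 69.8% lie opposite exons of Nr2c2, so its counts are uncertain if strands were not told apart. Mrpl9 had 110, 114, 115 and 119 CPM in 24h CD28-/- libraries, against 161, 162, 160 and 159 CPM in 24h wt libraries, a log2 fold change of -0.49 ± 0.06 (SE, adjusted p = 8.37e-09). Mrpl12 averaged 189 ± 15.5 CPM in 24h CD28-/- cells and 322 ± 5.33 CPM in 24h wt cells (SD, n = 4 each), a log2 fold change of -0.76 ± 0.10 (SE). Mrps12 differed by -0.61 ± 0.14, Mrps18a by -0.46 ± 0.08 and Mrps18b by -0.34 ± 0.09 (log2 fold change ± SE), all 3 called.

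The response itself was smaller in CD28-/- than in wt cells. The difference of the log2 responses was below 0 for all 78 members, and 66 were called lower and 0 higher, with a median of -0.50, against -0.02 over all genes (22.4% called lower and 20.8% higher). The response of Mrpl20 was 1.68 in CD28-/- cells and 2.70 in wt cells, a difference of -1.03 ± 0.15 (SE, adjusted p = 1.39e-06). The response of Mrps25 was 1.32 in CD28-/- cells and 2.17 in wt cells, a difference of -0.85 ± 0.11 (adjusted p = 7.40e-08). That of Mrpl35, a large-subunit protein, was 1.06 in CD28-/- cells and 1.89 in wt cells, a difference of -0.83 ± 0.13 (adjusted p = 1.93e-06). The naive CD28-/- and 24h CD28-/- libraries both enter this difference.

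Related lists also had medians below 0 in 24h CD28-/- against 24h wt cells. Of the respiratory chain subunits 43 of 76 fell (median -0.25), of the assembly factors 15 of 29 fell and 1 rose (-0.20), and of the translation factors 6 of 14 fell (-0.11). C1qbp differed by -0.67, Gfm1 by -0.63, Tsfm by -0.69 and Myc by -0.46 on the log2 scale, all called lower. Of the cytosolic ribosomal proteins 4 of 79 fell and 2 rose (-0.05). Marker lists differed as well. The summed memory list (9 of 9 genes detected) ran from 316 to 339 CPM in 24h CD28-/- cells and from 539 to 634 CPM in 24h wt cells, and the regulatory list (8 of 8) from 947 to 1007 CPM in CD28-/- cells and from 1390 to 1437 CPM in wt cells. The CD4 list (13 of 13) was 5208 to 5874 CPM in 24h CD28-/- cells and 3720 to 4457 CPM in 24h wt cells. CD8 T and NK markers (10 of 10) summed to 33.2 to 35.2 CPM in 24h CD28-/- cells and 37.6 to 49.5 CPM in 24h wt cells, with 5 lower, 1 higher and Gzmk at 0 in all CD28-/- libraries. B cell markers (10 of 10) summed to 101 to 141 CPM in 24h CD28-/- cells and 42.7 to 104 CPM in 24h wt cells, with 4 higher and none lower. None of the other lists named here had a gene at 0 throughout either group, and the part of these lists in the result was not tested.

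**Figure D4:**
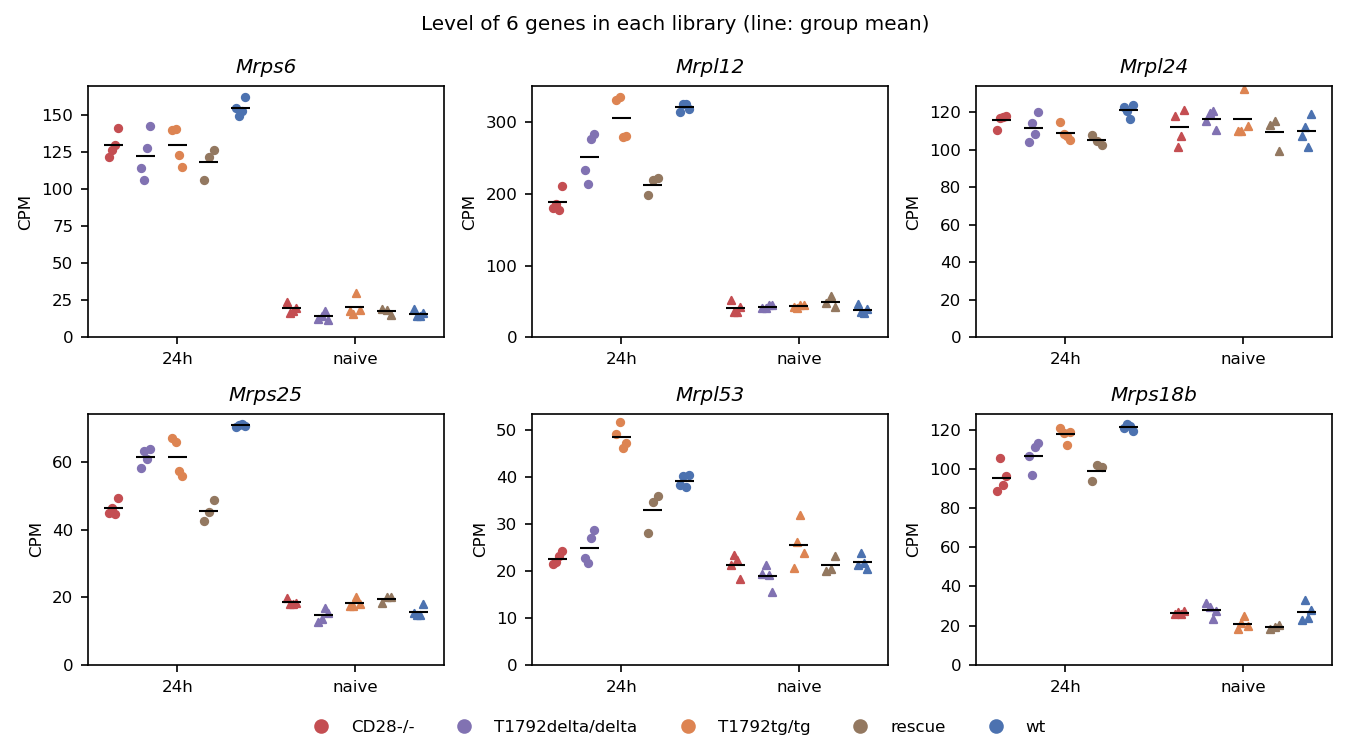
Level of 6 members in every library, in CPM, with circles for 24h and triangles for naive libraries, coloured by genotype; lines are group means. Mrpl24 spans 99.5 to 132 CPM over all libraries, Mrps25 separates the 24h CD28-/- and rescue libraries from the 24h wt libraries, and Mrpl53 at 24h is highest in T1792tg/tg and lowest in CD28-/- cells.

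In 24h T1792delta/delta cells 23 of 78 members were lower than in 24h wt cells and 0 higher, with a median of -0.20 against -0.0042 over all genes (8.47% called lower and 7.77% higher). The libraries did not overlap for 43 members, as for 13.8% of all genes. The count depends on single libraries: it was 6 without 24h T1792delta/delta replicate 1 or 2, 10 without 24h wt replicate 1 and 13 without 24h wt replicate 2. The median of the 79 cytosolic ribosomal proteins was also -0.20, with 7 lower, and that of the respiratory chain subunits -0.21, with 19 of 76 lower. Red cell markers (3 of 5 with a row, all detected) summed to 11.7 to 88.5 CPM in 24h T1792delta/delta cells and 4.91 to 6.86 CPM in 24h wt cells. Of the memory markers 3 of 9 were lower, of the CD4 markers 4 of 13 and of the regulatory markers 3 of 8, the last summing to 1126 to 1314 CPM in 24h T1792delta/delta cells and 1390 to 1437 CPM in 24h wt cells. The part of these lists in the result was not tested.

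Mrps34, a mitochondria-specific small-subunit protein, had 53.5, 51.4, 62.2 and 64.0 CPM in 24h T1792delta/delta libraries, against 77.1, 79.4, 72.6 and 76.5 CPM in 24h wt libraries. The sets were apart, with a log2 fold change of -0.40 ± 0.07 (SE, adjusted p = 0.000247). Exon sequence of Mrps34 overlaps the nucleoside diphosphate kinase gene Nme3, so its counts are uncertain. Mrpl9 had 130, 119, 136 and 145 CPM in 24h T1792delta/delta libraries, below the 4 wt values above, with a log2 fold change of -0.28 ± 0.06 (SE, adjusted p = 0.000734).

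In the response, 8 members were called lower in T1792delta/delta than in wt cells and 0 higher, with a median of -0.23 (2.95% of all genes lower and 3.15% higher). The named ones are Mrpl54 (-0.58 ± 0.13), Mrpl20 (-0.68 ± 0.15) and Mrps34 (-0.46 ± 0.11, SE). With the replicate number as a block the count was 5, and 6 with the block within genotype. Leaving out 1 library moved this count to between 3 and 14 for 14 of the 16 libraries, all but naive wt replicate 1 and 24h T1792delta/delta replicate 3.

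In 24h T1792tg/tg cells 1 member was higher and 2 were lower than in 24h wt cells, with a median of -0.07 (6.1% of all genes higher and 6.45% lower) that was -0.11 without 24h T1792tg/tg replicate 2 and -0.05 without replicate 3 or 4. Mrpl17, a large-subunit protein, averaged 88.5 CPM in 24h T1792tg/tg cells and 107 CPM in 24h wt cells and was lower (-0.28 ± 0.08, adjusted p = 0.0133), though not without 24h T1792tg/tg replicate 4 (0.0636). Mrpl10, the base of the stalk, was also lower (-0.18 ± 0.06, adjusted p = 0.0274). Its call ended without 24h T1792tg/tg replicate 3 or 4 or 24h wt replicate 1, 2 or 3. The Mrpl10 call also ended with a term for sex (adjusted p = 0.0873) and with no filter on low counts (0.0519). Of these libraries 1 of 4 T1792tg/tg and 3 of 4 wt came from female mice. The count of 3 was 5 without T1792tg/tg replicate 2, 1 without T1792tg/tg replicate 3 or wt replicate 1, 2 or 3, and 0 without T1792tg/tg replicate 4. In a fit of the compared groups alone it was 13. Of the memory markers 6 of 9 were higher and 0 lower, and of the CD8 T and NK markers 4 of 10 and 0. Of the CD4 markers 2 of 13 were higher and 4 lower, and of the regulatory markers 2 of 8 and 0. The part of these lists in the result was not tested.

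The response differed in 14 members between T1792tg/tg and wt cells, with 13 lower and 1 higher, Mrpl9, and a median of -0.19 (7.41% of all genes lower and 8.59% higher). Mrps25 (-0.41 ± 0.11), Mrpl10 (-0.30 ± 0.08) and Mrps11 (-0.44 ± 0.12, SE) were lower. Mrpl9 was higher by 0.26 ± 0.08 (SE), but not without naive T1792tg/tg replicate 4 or naive wt replicate 2. The Mrpl9 call also ended with the replicate block within genotype (adjusted p = 0.0562) and with the compared groups alone (0.0602). The count was 8 without naive or 24h T1792tg/tg replicate 3 or 4, and 7 without naive wt replicate 2.

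Mrpl53 was named in 3 of the 24h comparisons that involve miR-17~92. This mitochondria-specific protein of the large subunit had 22.6, 21.6, 26.9 and 28.7 CPM in 24h T1792delta/delta libraries and 49.1, 51.6, 46.0 and 47.2 CPM in 24h T1792tg/tg libraries, against 38.1, 40.2, 37.7 and 40.4 CPM in 24h wt libraries. The 3 sets did not overlap. It had 21.4, 21.8, 23.1 and 24.1 CPM in 24h CD28-/- libraries and 28.1, 34.6 and 36.0 CPM in 24h rescue libraries, which were again apart. Its log2 fold change was -0.65 ± 0.11 in T1792delta/delta against wt cells (adjusted p = 4.13e-05), 0.31 ± 0.10 in T1792tg/tg against wt cells (0.0443) and 0.54 ± 0.11 in rescue against CD28-/- cells (0.000701). The call in T1792tg/tg cells ended without any 1 of the 8 libraries (adjusted p of 0.0631 to 0.105). In naive cells none of these 3 comparisons was called. The gene lies at chr6:83109108-83109932 in the annotation, and 78.7% of the 76-base windows of its exons also occur in the overlapping predicted gene Gm42688, so reads of the pair may not have been told apart.

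**Figure D5:**
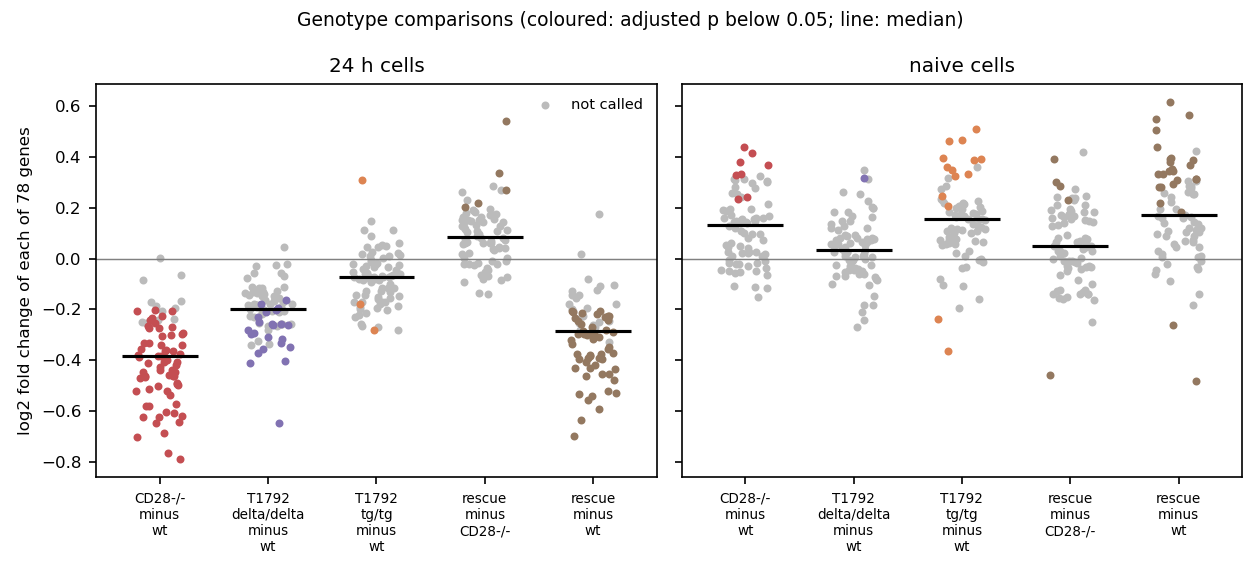
Log2 fold change of each of the 78 members between genotypes, in 24h cells (left) and naive cells (right); coloured points are called (adjusted p below 0.05), grey points are not, and lines are medians. The medians are -0.39, -0.20, -0.07, 0.09 and -0.29 at 24h and 0.13, 0.03, 0.15, 0.05 and 0.17 in naive cells, in the order of the axis.

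MicroRNAs of the cluster lower their targets through pairing of their seed (bases 2 to 8) with sites that usually lie in the region after the stop codon. The mature sequences, from RefSeq (GRCm38.p6), are shown with the seed in capitals, since miR-17-5p and miR-20a-5p share a seed, as do miR-19a-3p and miR-19b-3p. All lie on the plus strand within 1 cluster, from chr14:115043684-115043706 for miR-17-5p to chr14:115044476-115044496 for miR-92a-3p.
miR-17-5p: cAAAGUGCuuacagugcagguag
miR-20a-5p: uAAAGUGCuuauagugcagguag
miR-18a-5p: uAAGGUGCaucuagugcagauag
miR-19a-3p: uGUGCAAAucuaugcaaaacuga
miR-19b-3p: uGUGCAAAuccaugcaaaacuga
miR-92a-3p: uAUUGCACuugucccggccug
Of 77 members with a region after the stop codon long enough to search, 17 held a match to at least 1 seed, 7 for miR-17-5p and miR-20a-5p, 7 for miR-18a-5p, 5 for miR-19a-3p and miR-19b-3p and 2 for miR-92a-3p. The longest annotated region of each gene was searched, whether or not these cells use it. Sites of 4 named members are shown with the match in capitals.
Mrpl3 (miR-17-5p and miR-20a-5p): ctgtgcttcgtGCACTTTgatgaaccaga
Mrpl51 (miR-17-5p and miR-20a-5p): atttattgctgGCACTTTctgacactggc
Mrpl20 (miR-18a-5p): atctcttccaaGCACCTTggcttgtttga
Mrps25 (miR-19a-3p and miR-19b-3p): tcaggcaaattTTTGCACttggcttcatc
In 24h T1792delta/delta against wt cells the median log2 fold change was -0.18 for the 17 members with a site, of which 7 fell, and -0.20 for the 60 without one, of which 16 fell. In 24h T1792tg/tg against wt cells it was -0.06 with a site and -0.08 without one. In naive T1792tg/tg against wt cells it was 0.14 with and 0.15 without. Mrpl53 held no match.

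Few members were called between 24h rescue and 24h CD28-/- cells, which differ by Cre as well as by the transgene. In 24h rescue cells 5 members were higher than in 24h CD28-/- cells and 0 lower, with a median of 0.09 (9.52% of all genes higher and 8.86% lower), and 60 of 78 had a log2 fold change above 0. The libraries lay wholly above for 13 members, as for 19.3% of all genes. The 5 were Mrpl53, Mrpl3, Mrpl19, Mrpl1 and Mrpl47 (Mrpl1 and Mrpl47 were named after their values were seen). Mrpl3, near the catalytic centre, had 121, 131 and 128 CPM in 24h rescue libraries, against 106, 109, 112 and 109 CPM in 24h CD28-/- libraries. The sets were apart, with a log2 fold change of 0.22 ± 0.06 (SE, adjusted p = 0.00443). Mrpl19 had 83.5, 92.2 and 93.1 CPM in 24h rescue libraries, against 72.1, 80.0, 76.8 and 82.6 CPM in 24h CD28-/- libraries, a log2 fold change of 0.20 ± 0.06 (SE, adjusted p = 0.0170). The call of Mrpl19 ended without 24h CD28-/- replicate 1 or 24h rescue replicate 2 or 3 (0.0758 to 0.105). The count of 5 was 2 without 24h CD28-/- replicate 1, 24h rescue replicate 2 or 24h rescue replicate 3, and 9 without 24h rescue replicate 1. Of the memory markers 7 of 9 were higher and 0 lower, and of the CD4 markers 1 of 13 was higher and 6 lower. Of the regulatory markers 3 of 8 were higher and 1 lower. The part of these lists in the result was not tested.

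Members were lower in 24h rescue than in 24h wt cells. Of 78 members 53 were lower and 0 higher, with a median of -0.29 (17.7% of all genes lower and 17.4% higher), and the libraries lay wholly below for 72 members, as for 26.7% of all genes. The count was 31 without 24h rescue replicate 1. Mrps25 had 42.7, 45.4 and 49.0 CPM in 24h rescue libraries, all below the wt values given above, at -0.63 ± 0.08 (SE, adjusted p = 1.01e-07). Mrpl9 was lower by -0.42 ± 0.06 and Mrpl28 by -0.53 ± 0.08 (log2 fold change ± SE). The 2 comparisons of rescue cells with CD28-/- and with wt cells share the rescue libraries. Against wt cells 8 of 13 CD4 markers were higher and 1 lower, and 4 of 9 memory markers were higher and 1 lower. Of the regulatory markers 2 of 8 were higher and 5 lower. The part of these lists in the result was not tested.

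The response differed between rescue and CD28-/- cells in 5 members, 4 higher and 1 lower, with a median of 0.03 (6.96% of all genes higher and 5.84% lower) that ran from -0.05 without naive rescue replicate 3 to 0.11 without naive rescue replicate 2. Mrps18b (0.51 ± 0.14), Mrpl53 (0.55 ± 0.16) and Mrpl1 of the L1 stalk (0.42 ± 0.13, SE) were higher, and Mrpl10 was lower (-0.25 ± 0.09, adjusted p = 0.0456). The Mrpl10 call ended without any of 12 of the 14 libraries, that of Mrpl53 without naive CD28-/- replicate 2, naive rescue replicate 1 or 24h rescue replicate 2 or 3, and that of Mrpl1 without those 4 or naive rescue replicate 3. With the compared groups alone the calls of Mrpl10 and Mrpl1 ended (adjusted p = 0.109 and 0.0502 by edgeR). The count was 1 to 3 without naive CD28-/- replicate 2 or 3, naive rescue replicate 1 or 3, 24h CD28-/- replicate 1, 2 or 3, or 24h rescue replicate 2 or 3.

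Ranked by mean level at 24h, wt cells were highest of the 5 genotypes for 58 of 78 members and T1792tg/tg cells for 17. CD28-/- cells were lowest for 54 and rescue cells for 15. Wt and T1792tg/tg cells do not differ beyond the spread of their libraries for most of these members, nor do CD28-/- and rescue cells.

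In naive CD28-/- cells 8 of 78 members were higher than in naive wt cells and 0 lower, with a median of 0.13 against -0.00026 over all genes (7.42% higher and 7.34% lower). The median was 0.04 without naive CD28-/- replicate 1, 0.09 without naive wt replicate 2 and 0.08 without naive wt replicate 3. Mrpl46, a large-subunit protein, had 35.3, 27.5, 25.9 and 31.5 CPM in naive CD28-/- libraries, against 22.1, 22.6, 20 and 25.2 CPM in naive wt libraries. The sets were just apart, at 0.42 ± 0.10 (SE, adjusted p = 0.00604). Mrps18c was higher by 0.44 ± 0.11 and Mrpl50 by 0.33 ± 0.09 (log2 fold change ± SE). The count was 5 without naive CD28-/- replicate 1 or 4, 14 without naive CD28-/- replicate 2, 4 without naive wt replicate 3 and 16 without naive wt replicate 4. The summed stress list (12 of 12 genes detected) was 4523 to 5353 CPM in naive CD28-/- cells and 5152 to 13190 CPM in naive wt cells, with 7 genes called lower. Regulatory markers had 5 of 8 lower and 1 higher, and myeloid markers 4 of 14 lower. The part of these lists in the result was not tested.

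In naive T1792delta/delta cells 1 member, Mrpl54, was higher than in naive wt cells and 0 were lower (2.76% of all genes higher and 2.42% lower), with a median of 0.03 that was 0.00077 without naive wt replicate 3 and 0.08 without naive wt replicate 4. Mrpl54, a large-subunit protein, had 31.5, 31.2, 28.1 and 29.9 CPM in naive T1792delta/delta libraries, against 26.2, 26.8, 21.0 and 22.8 CPM in naive wt libraries. The sets were apart, at 0.32 ± 0.09 (SE, adjusted p = 0.0386). Its call ended without naive T1792delta/delta replicate 1, 2 or 4 or naive wt replicate 3 or 4. The count was 0 in each of these cases and 2 without naive wt replicate 1 or 2. The Mrpl54 call also ended with the compared groups alone (adjusted p = 0.0567 by edgeR) and with no filter on low counts (0.0592). Red cell markers summed to 1179 to 5047 CPM in naive T1792delta/delta cells and 310 to 949 CPM in naive wt cells. Myeloid markers summed to 239 to 344 CPM and 152 to 208 CPM, with 4 of 14 called higher and 0 lower. The part of these lists in the result was not tested.

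In naive T1792tg/tg cells 12 members were higher and 2 lower than in naive wt cells, with a median of 0.15 (10.5% of all genes higher and 12.6% lower) that was 0.10 without naive T1792tg/tg replicate 3. Mrpl45, which anchors the ribosome to the inner membrane, had 33.2, 29.8, 29.4 and 30.2 CPM in naive T1792tg/tg libraries, against 25.4, 24.9, 21.0 and 26.6 CPM in naive wt libraries. The sets were apart, at 0.32 ± 0.07 (SE, adjusted p = 0.000742). Mrpl49 (0.39 ± 0.09) and Mrpl22 (0.47 ± 0.11) were higher, and Mrpl9 (-0.24 ± 0.06) and Mrps18b (-0.37 ± 0.09) were lower, the last not without naive wt replicate 2 (adjusted p = 0.0510). With the compared groups alone the calls of Mrpl22, Mrpl9 and Mrps18b ended (adjusted p = 0.0506, 0.0859 and 0.0873 by edgeR). Mrpl22 had 21.3 CPM in naive T1792tg/tg replicate 3 and 13.1 to 14.7 CPM in the other 3 naive T1792tg/tg libraries, against 10.3 to 12.6 CPM in naive wt libraries, and its log2 fold change was 0.29 without replicate 3. A copy of Mrpl22, Gm6997, shares 17.1% of its 76-base windows. The count of 14 was 8 without naive wt replicate 2 or 3. Memory markers (9 of 9 detected) summed to 376 to 440 CPM in naive T1792tg/tg cells and 273 to 289 CPM in naive wt cells, with 8 called higher. CD8 T and NK markers (10 of 10 detected) summed to 121 to 202 CPM in naive T1792tg/tg cells and 101 to 107 CPM in naive wt cells, with 5 called higher, 4 of 13 CD4 markers were lower and 2 higher, and 3 of 8 regulatory markers were higher and 1 lower. The part of these lists in the result was not tested.

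Naive rescue cells had 23 members higher and 2 lower than naive wt cells, with a median of 0.17 (12.5% of all genes higher and 13.6% lower) that was 0.08 without naive rescue replicate 2 and 0.26 without naive rescue replicate 3. Mrpl20 had 40.3, 45.1 and 32.2 CPM in naive rescue libraries, against 28.8, 27.8, 22.7 and 26.7 CPM in naive wt libraries. The sets were apart, at 0.56 ± 0.12 (SE, adjusted p = 0.000546). Mrpl45 was higher by 0.31 ± 0.07 and Mrps18c by 0.51 ± 0.12, Mrps18c not without naive rescue replicate 2 (adjusted p = 0.0611). Mrps18b had 18.3, 19.6 and 20.2 CPM in naive rescue libraries, against 22.7, 33.3, 23.9 and 28.1 CPM in naive wt libraries, and was lower by 0.48 on the log2 scale. Mrpl17 was lower too (-0.26 ± 0.09, adjusted p = 0.0347), a call lost on leaving out any 1 of the naive rescue libraries or naive wt replicate 1 or 4. With the compared groups alone the calls of Mrpl45 and Mrpl17 ended (adjusted p = 0.0652 and 0.115 by edgeR). The count of 25 was 5 without naive rescue replicate 2, whose summed member level of 2679 CPM was the highest of the naive libraries, and 12 without naive wt replicate 3. Memory markers summed to 391 to 469 CPM in naive rescue cells and CD8 T and NK markers to 148 to 167 CPM, both wholly above the naive wt values above. Of the stress genes 8 of 12 were lower, of the regulatory markers 5 of 8 (1 higher) and of the myeloid markers 4 of 14. Of the CD8 T and NK markers 3 of 10 were higher and 2 lower, and of the memory markers 2 of 9 were higher. The part of these lists in the result was not tested. Respiratory chain subunits were higher in 49 of 76 cases (median 0.37).

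Between naive rescue and naive CD28-/- cells 4 members were higher and 1 lower, with a median of 0.05 (7.84% of all genes higher and 8.92% lower). The median was 0.11 without naive CD28-/- replicate 1, 0.03 without naive CD28-/- replicate 2 or 3, -0.0017 without naive rescue replicate 2 and 0.13 without naive rescue replicate 3. Mrpl10 (0.23 ± 0.06), Mrpl28 (0.29 ± 0.08) and Mrps11 (0.30 ± 0.09) were higher and Mrps18b was lower (-0.46 ± 0.10, log2 fold change ± SE). Mrpl28 was not called without naive CD28-/- replicate 3 or 4 or naive rescue replicate 2, and Mrps11 without naive CD28-/- replicate 2, 3 or 4 or naive rescue replicate 2 (0.18 without the last). With the compared groups alone the calls of Mrpl10, Mrpl28 and Mrps11 ended (adjusted p = 0.167, 0.157 and 0.204 by edgeR). The count of 5 was 16 without naive CD28-/- replicate 1, 3 without replicate 2 or 4, 2 without replicate 3 and 8 without naive rescue replicate 3. Of the CD8 T and NK markers 3 of 10 were higher and 0 lower, and of the memory markers 2 of 9 and 0. Of the CD4 markers 1 of 13 was higher and 3 lower. The part of these lists in the result was not tested.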

How the data were processed

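RNA-seq counts per gene of 38 libraries were analysed. Per the labels' protocols, libraries were made with a stranded TruSeq kit from polyadenylated RNA and read as 76-base single ends, and the authors deposited whole-number counts per gene with a gene length. The submitters' processing notes name the aligner STAR (2.5.2a), edgeR (3.24.3), R (3.5) and build mm10. No source used here gives the counting tool, its annotation or its strand setting. Some overlapping genes and copies are therefore named as uncertain. Other named members overlap exons of a gene on the opposite strand, which matters if strands were not told apart. Among them are Mrps25 (69.8% of exon bases, Nr2c2), Mrpl19 (36%, Gcfc2), Mrps18b (30.5%, Gm16279) and Mrpl24 (26.3%, Rrnad1). Mrps18c overlaps Gm43511 on its own strand (23.2%), and Mrps18b shares 11.95% of its 76-base windows with Gm13552. Total counts per library are given in the report, and rows with no symbol held 0.0749% of counts.

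Genotype and activation came from the labels. Genes passing filterByExpr (13650) were fitted with edgeR 4.0.16 in R 4.3.3 (TMM scaling, quasi-likelihood, 1 coefficient per group over all 38 libraries, two-sided, Benjamini-Hochberg over all genes, called below 0.05) for 19 comparisons. The p-values rest on a spread between mice estimated over all 10 groups together, not over the compared groups alone. With the compared groups alone, 5 and not 25 members were called in naive rescue against wt cells. In 24h rescue against wt cells it was 67 and not 53. The steps were run on simulated counts in which few genes changed, in 24h CD28-/- cells only, as many up as down. In the data 3793 genes were lower and 3236 higher in 24h CD28-/- than in 24h wt cells. The simulation therefore does not test the scaling under so broad a change. Alternatives were DESeq2 1.42.0, its size factors in edgeR, no filter or a mean of at least 5 CPM, the compared groups alone, a term for sex, the replicate number as a block, each library left out, and, chosen after seeing the data, the fit without naive CD28-/- replicate 1 and naive rescue replicate 2. The members and lists were chosen with earlier results of these data known. Same-numbered naive and 24h libraries deviated together in wt (0.109 to 0.313) and T1792delta/delta cells (0.207 to 0.286), with a correlation over 0.1 in all 4 pairs. They were read as pairs there, a pairing that comes from the data and not the labels. The main fit held no term for pairs, and the block within genotype was an alternative fitted for all genotypes. Named members were the 4 highest and 4 lowest wt responses, up to 3 per direction with the smallest p in each comparison, the Mrps18 homologues, Mrpl12 and Mrps12, the 4 highest and 4 lowest levels per kilobase in naive wt cells, and those called in only some responses. Of the 13 mRNAs of mitochondrial DNA and of Mtrfr no rows were used here. RefSeq tables matched 69 of 78 members by symbol.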

Additional observations from a re-analysis of the deposited data

Results flagged for a closer look

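Each named member was looked at in each group of 4 libraries, 272 groups in all, for a library far from the other 3; chance gives about 1 such group in 20, and 13 were found. In naive CD28-/- cells 1 library was high for Mrpl51 (15.4 CPM, the others 9.52 to 10.2), Mrps18a (23.1, the others 17.1 to 17.7) and Mrps25 (19.7, the others 18.1 to 18.2); this was replicate 1 each time. In naive T1792delta/delta cells replicate 1 was high for Mrpl22 (10.5 CPM, the others 9.15 to 9.20) and Mrps18c (28.4, the others 23.0 to 23.8). In naive T1792tg/tg cells replicate 3 was high for Mrpl20 (39.7 CPM, the others 32.8 to 33.5), Mrpl24 (132, the others 110 to 112) and Mrpl51 (18.3, the others 12.4 to 13.3). In 24h CD28-/- cells replicate 1 was low for Mrpl1 (42.7 CPM, the others 44.7 to 45.1) and Mrpl24 (111, the others 117 to 118), and replicate 4 was high for Mrpl52 (83.4, the others 69.6 to 71.1). In 24h wt cells replicate 4 was low for Mrpl3 (119 CPM, the others 127 to 128) and replicate 2 for Mrps21 (58.7, the others 61.4 to 61.9).

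The difference of the responses to 24 h between genotypes was tested itself, and shares over all genes tested stand in brackets. Between CD28-/- and wt cells 66 members were called lower and 0 higher (22.4% of all genes lower and 20.8% higher). Among them were Mrps25 (-0.85), Mrpl20 (-1.03) and Mrpl35 (-0.83 on the log2 scale). Between T1792delta/delta and wt cells 8 were lower and 0 higher (2.95% of all genes lower and 3.15% higher), among them Mrpl54 (-0.58), Mrpl20 (-0.68) and Mrps34 (-0.46). Between T1792tg/tg and wt cells 13 were lower and 1 higher (7.41% of all genes lower and 8.59% higher). These 14 include Mrpl9 (0.26), Mrps25 (-0.41), Mrpl10 (-0.30) and Mrps11 (-0.44). Between rescue and CD28-/- cells 4 were higher and 1 lower (6.96% of all genes higher and 5.84% lower). These 5 include Mrps18b (0.51), Mrpl53 (0.55), Mrpl1 (0.42) and Mrpl10 (-0.25).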

How the results depend on the processing

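All 5 counts of the 24h response and those of 24h CD28-/- against 24h wt cells and of the CD28-/- against the wt response stayed within 1.5 times under the alternatives run. Of the other counts, the causes of change were not tested. With the compared groups alone, the count was 3 in naive CD28-/- against wt, 5 in naive T1792tg/tg against wt, 1 in naive rescue against CD28-/-, 5 in naive rescue against wt, 13 in 24h T1792tg/tg against wt, 9 in 24h rescue against CD28-/- and 2 in the rescue against the CD28-/- response. With no filter it was 0 in naive T1792delta/delta against wt, 1 in 24h T1792tg/tg against wt, 5 in the T1792delta/delta against the wt response and 3 in the rescue against the CD28-/- response. With a mean of at least 5 CPM it was 23 in naive T1792tg/tg against wt. With a term for sex it was 2 in naive T1792delta/delta against wt. With DESeq2 it was 2 there, 9 in 24h rescue against CD28-/- and 13 in the T1792delta/delta against the wt response. Without naive CD28-/- replicate 1 and naive rescue replicate 2, chosen after seeing the data, it was 2 in naive T1792delta/delta against wt, 8 in naive rescue against wt, 5 in 24h T1792tg/tg against wt and 13 in the T1792delta/delta against the wt response.

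The main fit did not pair libraries, and the block within genotype was fitted for all genotypes. Same-numbered libraries were read as pairs in wt and T1792delta/delta cells only. Of all 19 same-numbered pairs 13 correlated over 0.1 (0.029 to 0.313) and 17 correlated best with their own number, a hint from the data in the other genotypes. With the replicate number as a block, the count was 5 in the T1792delta/delta and 3 in the rescue difference of responses, and with the block within genotype 3 in the rescue and 9 in the T1792tg/tg difference of responses. The call of Mrpl9 in the T1792tg/tg difference ended with the block within genotype (adjusted p = 0.0562), that of Mrpl10 in the rescue difference with either block (0.0596 and 0.0834) and that of Mrpl17 in naive rescue against wt cells with the block (0.0521). The block changed no other call of a named member beyond that of Mrpl24 in wt cells.

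Leaving out 1 library gave 4 to 16 in naive CD28-/- against wt, 0 to 2 in naive T1792delta/delta against wt, 8 to 20 in naive T1792tg/tg against wt, 2 to 16 in naive rescue against CD28-/-, 5 to 37 in naive rescue against wt, 6 to 30 in 24h T1792delta/delta against wt, 0 to 5 in 24h T1792tg/tg against wt, 2 to 9 in 24h rescue against CD28-/- and 31 to 49 in 24h rescue against wt. For the differences of responses it gave 3 to 14 (T1792delta/delta), 7 to 17 (T1792tg/tg) and 1 to 7 (rescue).

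Of the medians, that of naive rescue against CD28-/- cells turned to -0.001728 without naive rescue replicate 2 (range with 1 library left out -0.001728 to 0.1325), and that of the rescue against the CD28-/- response to -0.02406 without naive CD28-/- replicate 1 and -0.04744 without naive rescue replicate 3 (range -0.04744 to 0.1105). Mrpl24 in the CD28-/- response turned to -0.01834 with DESeq2 size factors, to -0.01811 with DESeq2 and to -0.03575 with a mean of at least 5 CPM, and Mrpl58 in the rescue response to -0.007895 with that filter. With that filter Mrpl24 was called lower in T1792delta/delta, T1792tg/tg and rescue cells (-0.18, -0.23 and -0.17). Over all named genes and alternatives, 1677 values kept their call and direction, 113 lost the call, 11 gained it and 4 reversed. Mrpl23, at about 1 CPM, is limited by its low counts and by the sequence it shares with a copy.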
